A study of Mus musculus with 9 samples.

Results

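The collagen genes of the postnatal mouse ventricle are described here, chosen by name as every gene symbol made of Col, a 1- or 2-digit type number, the letter a and a 1- or 2-digit chain number. The rule found 44 of the 37840 genes named in the 9 count tables. By known structure they comprised 11 fibrillar collagens, 8 basement membrane collagens and 25 other collagens, and the last group held 6 type VI, 9 fibril-associated (FACIT), 3 short-chain, 4 transmembrane and 3 remaining chains. The tables came from single-nucleus Drop-seq, a droplet method that captures polyadenylated RNA on beads, where 1 barcode stands for 1 nucleus and each captured molecule carries a unique molecular identifier (UMI). All mice had the strain label C57BL6/J, sex was not determined, and the libraries held nuclear RNA of the ventricle. Controls had the genotype ERRalphaHet/ERRgammaWT, so they already lacked 1 ERRα allele, and were taken at postnatal day 6 (control P6, 3 libraries) or at days 9 to 10 (control P10, 3 libraries). The third group had the genotype label ERRalphaKO/ERRgammaKO and was taken at days 9 to 10 (KO P10, 3 libraries). The promoter or Cre behind the knockout alleles is not given in the sources used here.

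Collagens are secreted, triple-helical proteins of the extracellular matrix. Fibrillar collagens such as types I and III form the load-bearing fibres between heart muscle cells, with types V and XI inside the fibril, and cardiac fibroblasts are known as their main source. Type IV collagens assemble into the sheets of the basement membrane that surround each cardiomyocyte and underlie the endothelium, where types XV and XVIII also lie. Type VI forms beaded filaments, types IX, XII, XIV and XVI decorate fibrils, and type VIII forms networks in vessel walls. ERRα and ERRγ (Esrra and Esrrg) are nuclear receptors known for switching on genes of mitochondrial energy metabolism, and their binding site is TNAAGGTCA.

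The collagens with the largest knockout change in any of the 4 classes tested, Col4a3 and Col4a4, lie head to head on chromosome 1 and are transcribed away from each other. Col4a4 spans chr1:82448423-82586849 on the minus strand and Col4a3 spans chr1:82586921-82722059 on the plus strand (GRCm38). In the RefSeq promoter table (GRCm38.p6), 71 bases with a GC content of 69.0% lay between their start sites, and they are shown because both genes start at their edges:
Col4a4-Col4a3, chr1:82586850-82586920, plus strand: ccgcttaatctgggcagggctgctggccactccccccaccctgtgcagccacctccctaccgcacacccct
The 120 bases upstream of 2 further genes that the results turn on are shown on each gene's own strand. Col8a1 was raised in the knockout, and Col3a1 had the highest level of all collagens.
Col8a1, chr16:57754738-57754857, minus strand: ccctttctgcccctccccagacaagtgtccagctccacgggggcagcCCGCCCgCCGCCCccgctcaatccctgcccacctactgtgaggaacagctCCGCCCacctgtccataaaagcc
Col3a1, chr1:45311418-45311537, plus strand: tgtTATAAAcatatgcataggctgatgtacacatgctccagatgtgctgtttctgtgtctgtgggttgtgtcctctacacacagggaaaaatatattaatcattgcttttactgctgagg
Capitals mark matches to GGGCGG on either strand in Col8a1 and to TATAAA in Col3a1. The stretch between Col4a4 and Col4a3 held neither of these, nor CCAAT or TNAAGGTCA. Of the 44 collagens, 35 had an entry in the table, with 38 windows from 250 bases upstream to 50 downstream of a start site. On either strand, GGGCGG was in 23 collagen windows (60.5%) against 35.7% of all 32851 windows, and CCAAT was in 13 (34.2%) against 37.4%. TATAAA was in 5 (13.2%) against 13.6%. TNAAGGTCA was in 1 collagen window, that of Col11a1 (2.63%), against 1.28% of all windows. A match is a description of these letters only.

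The 9 libraries held 33000 barcodes and 2540101 to 5358489 UMIs each, mitochondrially encoded genes apart, which took 0.888 to 2.61% of UMIs in control P6 libraries, 8.56 to 40.8% in control P10 and 7.13 to 14.7% in KO P10. KO P10 libraries 2 and 1 shared 465 barcodes, against 0 to 12 in any other pair, and 464 of these were left out of library 2 in the class results but not over all barcodes. After filters, 25311 nuclei fell into 15 clusters, found without any collagen among the variable genes and named from marker lists without collagens. The testable classes were 4403 fibroblast-like, 1270 endocardial-like, 1637 endothelial-like and 9587 cardiomyocyte-like nuclei, and 7655 nuclei stayed unnamed. In the check of the labels, Esrra over all barcodes was 69.5, 74.3 and 59.0 CPM (counts scaled to a library total of 1000000) in control P10 libraries and 4.65, 13.2 and 9.44 in KO P10 (log2 change -2.92, edgeR adjusted p = 7.13e-05). Esrrg was 791, 697 and 974 CPM against 357, 394 and 372 (log2 change -1.13, edgeR adjusted p = 0.00391), with counts left in every knockout library. Esrrg RNA in KO P10 was not below control P6, where it was 299, 394 and 264 CPM.

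Fibroblast-like nuclei gave the largest share of their UMIs to collagens among the 4 tested classes, 2.09% ± 0.50 (SD, n = 9 libraries). Endocardial-like nuclei gave 0.743% ± 0.227, endothelial-like nuclei 0.632% ± 0.105 and cardiomyocyte-like nuclei 0.264% ± 0.124. Shares are not corrected for gene span, so an order of families within a class is that of counted UMIs only. Most of the fibroblast-like share was fibrillar (1.55% ± 0.47), whereas in endothelial-like nuclei the order of the families differed between groups. There the basement membrane share was 0.347% ± 0.043 against a fibrillar share of 0.129% ± 0.016 in control P6, 0.276% ± 0.041 against 0.328% ± 0.083 in control P10 and 0.280% ± 0.047 against 0.382% ± 0.106 in KO P10 (SD, n = 3). The small classes, not tested, were epicardial-like nuclei (129 in all), with 2.87% ± 0.41 in control P6, 1.44% ± 0.07 in control P10 and 1.12% ± 0.26 in KO P10, and pericyte-like nuclei (426) with 0.752% ± 0.163 over all libraries. Macrophage-like nuclei (204), a class not known for making fibrillar collagens, gave 0.0996% ± 0.0327 to them in control P6, 0.411% ± 0.135 in control P10 and 0.442% ± 0.092 in KO P10.

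**Figure D1:**
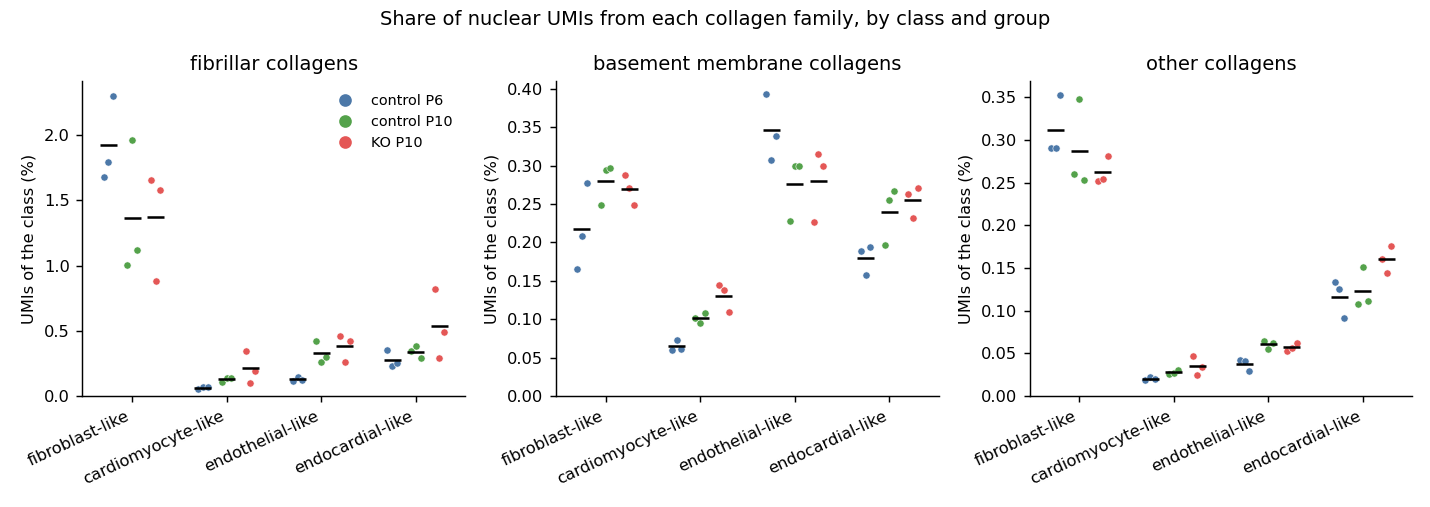
Share of the UMIs of each class (vertical axis, %) that came from fibrillar, basement membrane and other collagens, with 1 point per library, coloured by group, and a bar for the group mean. Fibrillar collagens stand highest in fibroblast-like nuclei, at 0.881 to 2.30% of UMIs, and reach at most 0.823% in any library of the other 3 classes.

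Each of the 9 fibrillar collagens with at least 100 UMIs over the 4 classes had its highest pooled level in fibroblast-like nuclei. Per kilobase of gene span and pooled over libraries, Col3a1 stood at 187 CPM in fibroblast-like nuclei, Col1a1 at 132 and Col1a2 at 126, ahead of the type VI chains Col6a1 at 28.2 and Col6a2 at 20.0. Basement membrane chains were lower on that scale, with Col4a1 at 8.15, Col15a1 at 7.22 and Col4a2 at 4.59, and the fibril nucleator Col5a2 was at 7.02. Col3a1 (chr1:45311538-45349706, plus strand) had 2768 to 11030 CPM over the 9 libraries in fibroblast-like nuclei, with a median of 7120, as CPM of the class total. Its medians were 1165 in endothelial-like, 835 in endocardial-like and 346 in cardiomyocyte-like nuclei, and the fibroblast-like level was the highest of the 4 in each of the 9 libraries.

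Basement membrane collagens did not share 1 leading class. Col4a1 and Col4a2, the chains of the common type IV network, were highest in endothelial-like nuclei in 9 of 9 libraries, where Col4a1 had 1151 to 1967 CPM (median 1430) against a median of 936 in fibroblast-like and 269 in cardiomyocyte-like nuclei. Col4a5, which partners Col4a3 and Col4a4 in another type of network, was highest in cardiomyocyte-like nuclei in 9 of 9 libraries, with 234 to 397 CPM (median 317). Its median was 179 CPM in endocardial-like, 86.5 in fibroblast-like and 57.9 in endothelial-like nuclei, and the gene lies on the X chromosome (chrX:141475385-141689234, plus strand). Col4a4 and Col4a3 were highest in endocardial-like nuclei in 9 of 9 libraries, at 119 to 771 CPM (median 349) and 48.6 to 459 CPM (median 228). Col18a1, the precursor of endostatin, was highest in endothelial-like nuclei in 5 libraries and in endocardial-like nuclei in 4, so these neighbours in the order did not separate. Col15a1 and Col4a6 led in fibroblast-like nuclei. These class levels are descriptions with no test.

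**Figure D2:**
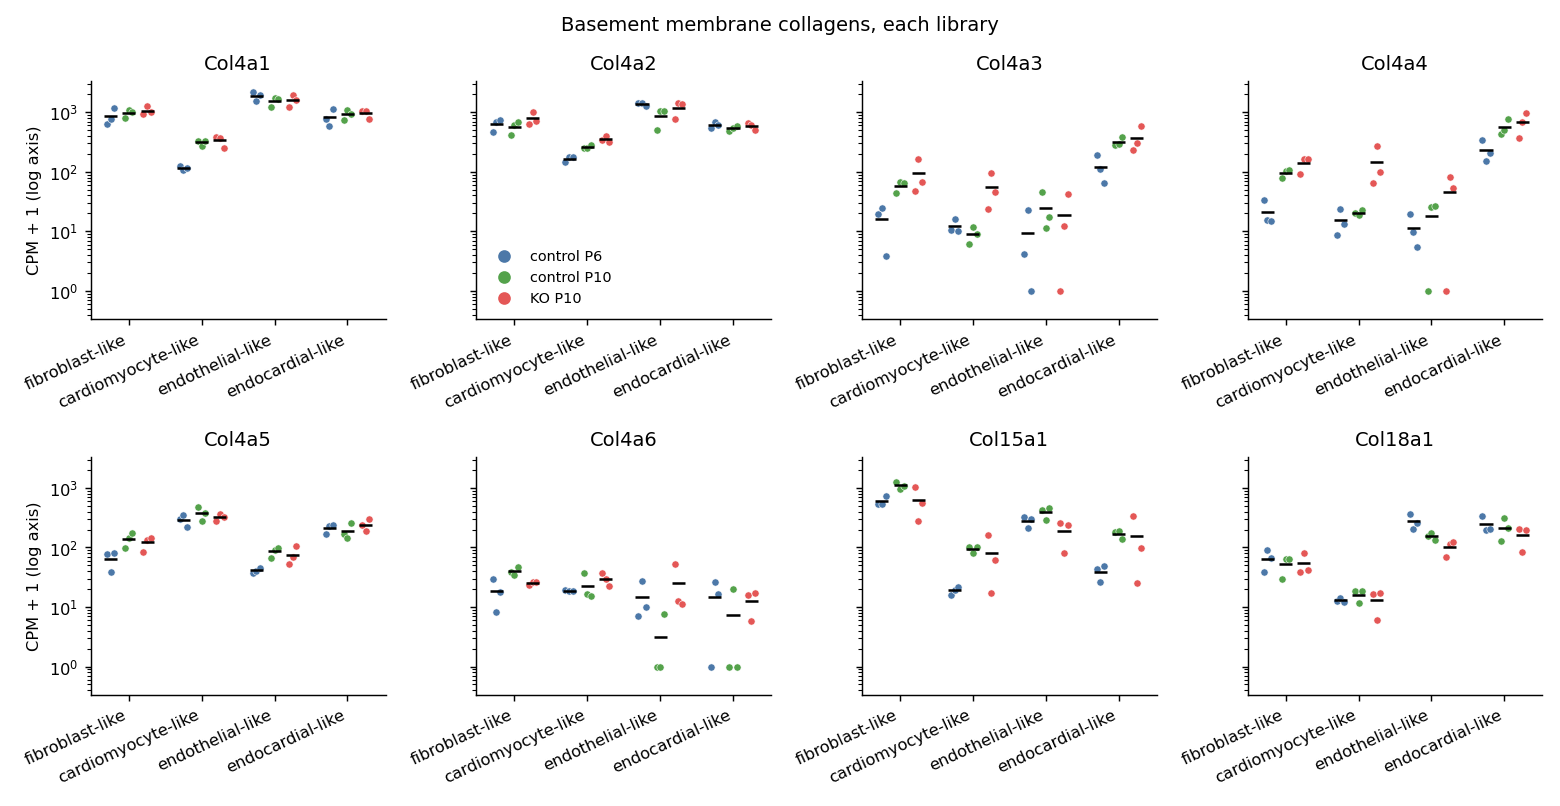
Level of the basement membrane collagens in each library (CPM plus 1, log axis) in the 4 classes, 1 panel per gene, coloured by group, with a bar for the group mean. Col4a1 and Col4a2 are highest in endothelial-like nuclei, Col4a5 in cardiomyocyte-like nuclei, and Col4a3 and Col4a4 in endocardial-like nuclei.

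Of the 15 other collagens with at least 100 UMIs, 11 were highest in fibroblast-like nuclei, 3 in endocardial-like (Col13a1, Col23a1 and Col25a1, the transmembrane chains) and 1 in endothelial-like nuclei (Col28a1). Col23a1 (chr11:51289920-51583918, plus strand) had 170 to 413 CPM in endocardial-like nuclei and 0 to 25.8 CPM in fibroblast-like nuclei, ranges that do not overlap. Col4a1 (chr8:11198423-11312826, minus strand) and Col4a2 (chr8:11312805-11449287, plus strand) overlap at their starts on opposite strands, and the use of strand in the authors' counting is not given in the sources used here.

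The comparison of control P10 with control P6 asked how collagen RNA changed over these days of postnatal heart growth. In fibroblast-like nuclei 5 of the 29 collagens tested passed an edgeR adjusted p of 0.05, against 12.8% of all genes tested. Of these, 3 were higher, against 6.44% of all genes, and 2 lower, against 6.38%. The median log2 change of the 29 was -0.14, beside -0.03 over all genes, and by family it was 1.03 for basement membrane, -0.30 for fibrillar and -0.20 for other collagens. The 3 that rose were all chains of the Col4a3, Col4a4 and Col4a5 network, and the 2 that fell were Col11a1 and Col9a2. Both controls' libraries are given in label order below, in CPM scaled by edgeR's TMM factors, and the labels do not state that libraries came from separate animals, so p-values measure the spread between libraries.

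Col4a4 had 33.0, 14.3 and 14.2 CPM in control P6 and 76.6, 103 and 106 in control P10 fibroblast-like nuclei. Every control P10 library lay above every control P6 library, a 5.14-fold rise (log2 2.36, SE 0.39, edgeR adjusted p = 0.000748). Its neighbour Col4a3 had 18.9, 23.8 and 2.84 CPM against 43.1, 66.6 and 63.8 (log2 1.97, SE 0.55, edgeR adjusted p = 0.0237), again without overlap. That call was lost without control P10 library 3 (adjusted p = 0.0777) or control P6 library 3 (0.154). Col4a5 had 75.4, 38.1 and 79.4 CPM against 95.8, 142 and 175 (log2 1.17, SE 0.33, edgeR adjusted p = 0.0234). Its call was lost without control P10 library 3 (0.132), control P6 library 2 (0.163) or control P6 library 3 (0.0521).

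Col11a1 (chr3:114030540-114220718), a minor fibrillar chain better known from cartilage, had 104, 100 and 105 CPM in control P6 and 47.9, 21.7 and 9.96 in control P10. The groups did not overlap, and the fitted log2 change of -2.18 (SE 0.43, edgeR adjusted p = 0.00291) passed with any 1 library left out. Col9a2 (chr4:121039385-121055322), a cartilage FACIT chain, had 37.7, 33.3 and 51.1 CPM against 0, 21.7 and 7.97 (log2 change -1.64, SE 0.52, edgeR adjusted p = 0.0411), from 87 UMIs in all. It passed in 2 of the 6 fits with a library left out, and without control P10 library 1 or 3 or control P6 library 2 or 3 its adjusted p was 0.0901 to 0.193.

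The most abundant chains did not pass the test. Col3a1 had 8531, 8567 and 11256 CPM in control P6 and 4067, 9587 and 5317 in control P10 (log2 change -0.58, SE 0.40, edgeR adjusted p = 0.351). Col1a2 had 4737, 5093 and 5964 against 3530, 5808 and 3472 (-0.30, SE 0.33, edgeR adjusted p = 0.581), and Col1a1 had 2762, 2874 and 3893 against 1633, 2854 and 1692 (-0.62, SE 0.33, edgeR adjusted p = 0.213). In each of these 3 genes control P10 library 2 lay within the control P6 range and libraries 1 and 3 lay below it. Col4a1 had 627, 771 and 1180 CPM against 790, 1096 and 1028, and Col4a2 had 462, 676 and 741 against 417, 602 and 682. Col15a1 had 533, 536 and 729 against 1269, 967 and 1078 without overlap, yet its adjusted p was 0.103 (edgeR). Among the other collagens, the FACIT chain Col14a1 had 980, 760 and 840 CPM against 776, 895 and 805. The type VI chain Col6a2 had 693, 629 and 749 against 388, 830 and 558, and Col6a1 had 542, 550 and 865 against 345, 682 and 371, with overlapping groups in each. The 7 fibroblast markers summed to 7698 to 9554 CPM in control P6 and 6866 to 10733 in control P10 in these nuclei, with 1 of 7 lower by the test. Cardiomyocyte markers summed to 4904 to 5859 against 11115 to 17320 CPM with 6 of 8 higher, and their part in the collagen results was not tested.

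In cardiomyocyte-like nuclei 12 of 25 collagens tested rose from control P6 to control P10 and 0 fell, against 17.3% of all genes called in either direction, 8.19% called higher and 9.09% called lower. Their median log2 change was 0.98, beside -0.03 over all genes, with 5 of 7 fibrillar, 3 of 8 basement membrane and 4 of 10 other collagens called. The levels stayed low: the fibrillar share of UMIs went from 0.0649% ± 0.0086 to 0.130% ± 0.020 (SD, n = 3).

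Among the fibrillar chains, Col5a2 had 24.8, 23.7 and 29.7 CPM in control P6 and 98.6, 63.5 and 89.2 in control P10 (log2 1.66, SE 0.26, edgeR adjusted p = 0.000715). Col1a2 had 165, 225 and 176 against 524, 451 and 500 (1.38, SE 0.29, edgeR adjusted p = 0.00433). Col5a1 had 18.3, 27.5 and 27.9 against 55.4, 50.3 and 54.1 (1.09, SE 0.28, edgeR adjusted p = 0.0123). These 3 kept their calls with any 1 library left out. Col1a1 had 92.8, 92.0 and 85.5 against 163, 201 and 192 (1.04, edgeR adjusted p = 0.0244), and Col5a3 had 4.31, 3.71 and 4.65 against 13.8, 8.01 and 16.6 (1.56, edgeR adjusted p = 0.0291). Col1a1 lost its call without control P10 library 3 or control P6 library 2 or 3 (0.0738 to 0.0994), and Col5a3 without any of these or control P10 library 1 (0.0593 to 0.183). Col3a1, at 255, 260 and 317 against 419, 593 and 627 CPM, missed the threshold (edgeR adjusted p = 0.0695).

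Basement membrane chains in the same nuclei included Col15a1 (chr4:47208161-47313167), with 15.1, 18.6 and 20.4 CPM in control P6 and 100, 78.4 and 101 in control P10. This was the largest fold among the 12, at 5.09-fold (log2 2.35, SE 0.53, edgeR adjusted p = 0.00624). Col4a1 had 126, 106 and 114 against 325, 273 and 333 (1.43, SE 0.24, edgeR adjusted p = 0.00119), and both calls were kept with any 1 library left out. Col4a2 had 143, 173 and 174 against 249, 255 and 281 (0.68, SE 0.22, edgeR adjusted p = 0.0411), a call lost in all 6 fits with a library left out (0.0521 to 0.148). Of the type VI chains, which anchor cells to the matrix around them, Col6a1 had 16.2, 16.3 and 13.9 against 43.3, 45.2 and 48.0 (1.55, SE 0.29, edgeR adjusted p = 0.00221) and kept its call in all 6. Col6a2 had 11.9, 20.8 and 31.6 against 46.7, 45.8 and 50.5 (1.14, edgeR adjusted p = 0.042), and Col6a3 had 11.9, 7.42 and 9.29 against 46.7, 24.02 and 20.9 (1.59, edgeR adjusted p = 0.0425). The FACIT chain Col14a1 had 25.9, 27.5 and 30.7 against 57.1, 48.6 and 72.0 (1.08, edgeR adjusted p = 0.0279). In none of the 12 did the groups overlap, but these genes were picked by their p. The share of all genes without overlap is not given here, so this adds no support to the calls. Col6a2 lost its call without any library except control P6 library 3 (0.0556 to 0.131), Col6a3 without control P10 library 1 or 3 or control P6 library 2 or 3 (0.0502 to 0.150), and Col14a1 without control P10 library 3 or any control P6 library (0.0544 to 0.125).

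Fibroblast markers moved with these collagens. In cardiomyocyte-like nuclei the 7 markers summed to 233 to 272 CPM in control P6, 561 to 648 in control P10 and 317 to 1081 in KO P10, with 4 of 7 higher with age by the test and none at 0. Set against the fibroblast-like nuclei of the same library, the cardiomyocyte-like level of 10 collagens typical of fibroblasts was 2.66 to 5.21% in control P6, 7.22 to 12.2% in control P10 and 9.61 to 17.4% in KO P10. The 7 fibroblast markers stood at 1.29 to 4.66%, 4.22 to 9.68% and 5.49 to 15.2%. Col4a1 was outside this range at 15.3%, 32.4% and 34.3%, as was Col4a2 at 28.2%, 47.2% and 48.9%, and Col4a5 was above the fibroblast-like level throughout (556%, 296% and 297%). Markers of the endothelial class, where Col4a1 and Col4a2 were highest, rose as well in cardiomyocyte-like nuclei. They summed to 118 to 140 CPM in control P6 and 194 to 323 in control P10, with 5 of 8 higher by the test. Pericyte markers summed to 346 to 532 against 701 to 730 CPM, with 3 of the 6 tested higher. The part of RNA from other cells in the cardiomyocyte-like collagen counts was not tested.

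**Figure D3:**
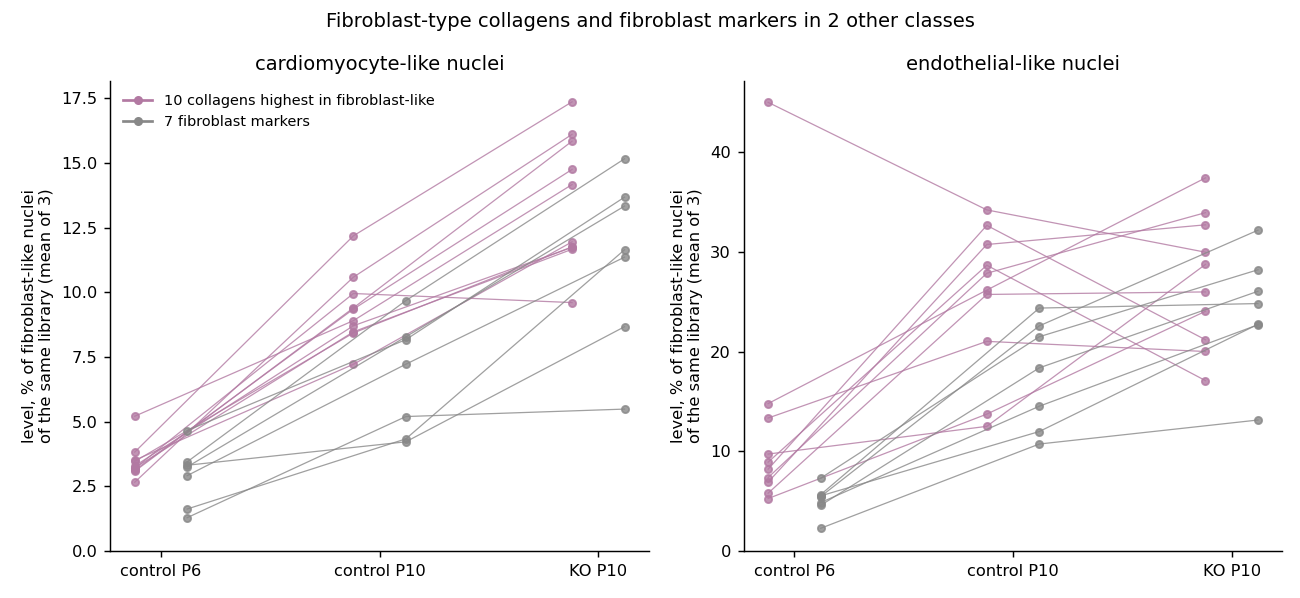
Level of 10 collagens and 7 fibroblast markers in cardiomyocyte-like and endothelial-like nuclei, as a percentage of the level in fibroblast-like nuclei of the same library (mean of 3 libraries per group; 1 line per gene). In cardiomyocyte-like nuclei collagens and markers lie in overlapping ranges and both are higher in control P10 than in control P6. In endothelial-like nuclei Col15a1 stands apart in control P6, at 45.0% against 2.27 to 7.30% for the markers, and is lower in control P10, at 34.2%.

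In endothelial-like nuclei 9 of 16 collagens tested were called with age, against 16.6% of all genes. Of these, 8 were higher, against 7.87% of all genes, and 1 lower, against 8.71%. The median log2 change was 1.09, beside 0.00 over all genes, and by family it was 1.31 for fibrillar, 1.13 for other and -0.28 for basement membrane collagens. Col1a2 had 364, 456 and 331 CPM in control P6 and 1667, 856 and 1077 in control P10 (log2 1.60, SE 0.32, edgeR adjusted p = 0.000571). Col3a1 had 500, 657 and 577 against 1556, 1313 and 1384 (1.29, SE 0.31, edgeR adjusted p = 0.0033). For both, the groups lay apart in every library and the call was kept with any 1 library left out. Col5a1 had 55.5, 57.0 and 89.5 against 333, 128 and 150 (1.34, edgeR adjusted p = 0.00923, or 0.0582 without control P6 library 2). Col1a1 had 219, 333 and 161 against 689, 371 and 493 (1.05, edgeR adjusted p = 0.0251), and Col27a1, a fibrillar chain of developing cartilage and other tissues, had 15.4, 17.5 and 22.4 against 44.5, 97.0 and 35.9 (1.77, edgeR adjusted p = 0.0172).

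Col14a1 had 40.1, 65.7 and 35.8 CPM against 111, 83.1 and 150 in endothelial-like nuclei (1.30, edgeR adjusted p = 0.0155), and Col6a3 had 46.3, 21.9 and 17.9 against 88.9, 97.0 and 81.6 (1.54, edgeR adjusted p = 0.021). Of the basement membrane chains, Col4a5 had 37.0, 39.4 and 44.7 against 66.7, 90.1 and 97.9 (1.16, edgeR adjusted p = 0.0345). Col18a1, the endostatin precursor, was the one that fell, from 358, 206 and 260 to 156, 173 and 134 CPM (-0.85, SE 0.30, edgeR adjusted p = 0.0486). The 6 calls other than Col1a2, Col3a1 and Col5a1 each failed in 2 to 5 of the 6 fits with a library left out: Col14a1 without control P10 library 3 or control P6 library 3 (0.0656 to 0.253), and Col1a1 without control P10 library 1 or 3 or control P6 library 3 (0.0779 to 0.126). Col27a1 lost it without control P6 library 1 or 2 (0.0549 to 0.0798) and was not tested without control P10 library 2, and Col6a3 lost it without control P10 library 2 or 3 or control P6 library 2 or 3 (0.0912 to 0.107). Col4a5 kept its call only without control P10 library 1 (otherwise 0.068 to 0.210), and Col18a1 only without control P6 library 2 (otherwise 0.0506 to 0.283).

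The leading endothelial-like chains did not pass: Col4a1 had 2202, 1534 and 1938 CPM against 1222, 1746 and 1652 (-0.28, edgeR adjusted p = 0.572) and Col4a2 had 1449, 1420 and 1266 against 511, 1043 and 1067 (-0.61, edgeR adjusted p = 0.185). Col15a1 had 330, 215 and 304 against 422, 291 and 457 (0.44, edgeR adjusted p = 0.357). Fibroblast markers summed to 329 to 474 CPM in control P6 and 1085 to 1550 in control P10 in these nuclei, with 5 of the 6 tested higher, and their part in the rise of fibrillar collagens was not tested. The class's own endothelial markers summed to 5296 to 6092 CPM in control P6 and 3519 to 4496 in control P10, with 2 of 8 lower. Cardiomyocyte markers in these nuclei summed to 9232.5 to 13530 against 20603 to 34454 CPM, with 4 of 8 higher. The part of these shifts in the lower Col18a1 and Col4a2 values was not tested. When nuclei were assigned by their own markers, 5 collagens were called, of which Col1a2, Col4a5 and Col6a3 were among the 9, while Col4a3 and Col8a1 were not.

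In endocardial-like nuclei 2 of 18 collagens passed, against 8.01% of all genes, and both rose (3.92% of all genes rose and 4.09% fell). Col4a4 had 341, 151 and 205 CPM in control P6 and 425, 494 and 772 in control P10 (log2 1.37, SE 0.39, edgeR adjusted p = 0.0291), and Col4a3 had 192, 109 and 63.2 against 277, 294 and 386 (1.46, SE 0.43, edgeR adjusted p = 0.0336). No control P6 library reached the control P10 range in either gene. Both calls were lost without control P10 library 3, control P6 library 2 or control P6 library 3, with adjusted p of 0.131 to 0.211 for Col4a4 and 0.150 to 0.194 for Col4a3. The head-to-head pair was thus called higher with age in fibroblast-like and endocardial-like nuclei. In cardiomyocyte-like nuclei it was not: Col4a4 had 7.55, 23.0 and 12.1 against 19.0, 17.7 and 22.1 CPM (0.41, edgeR adjusted p = 0.618) and Col4a3 had 9.71, 14.8 and 9.29 against 5.19, 10.9 and 7.999 (-0.41, edgeR adjusted p = 0.620).

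**Figure D4:**
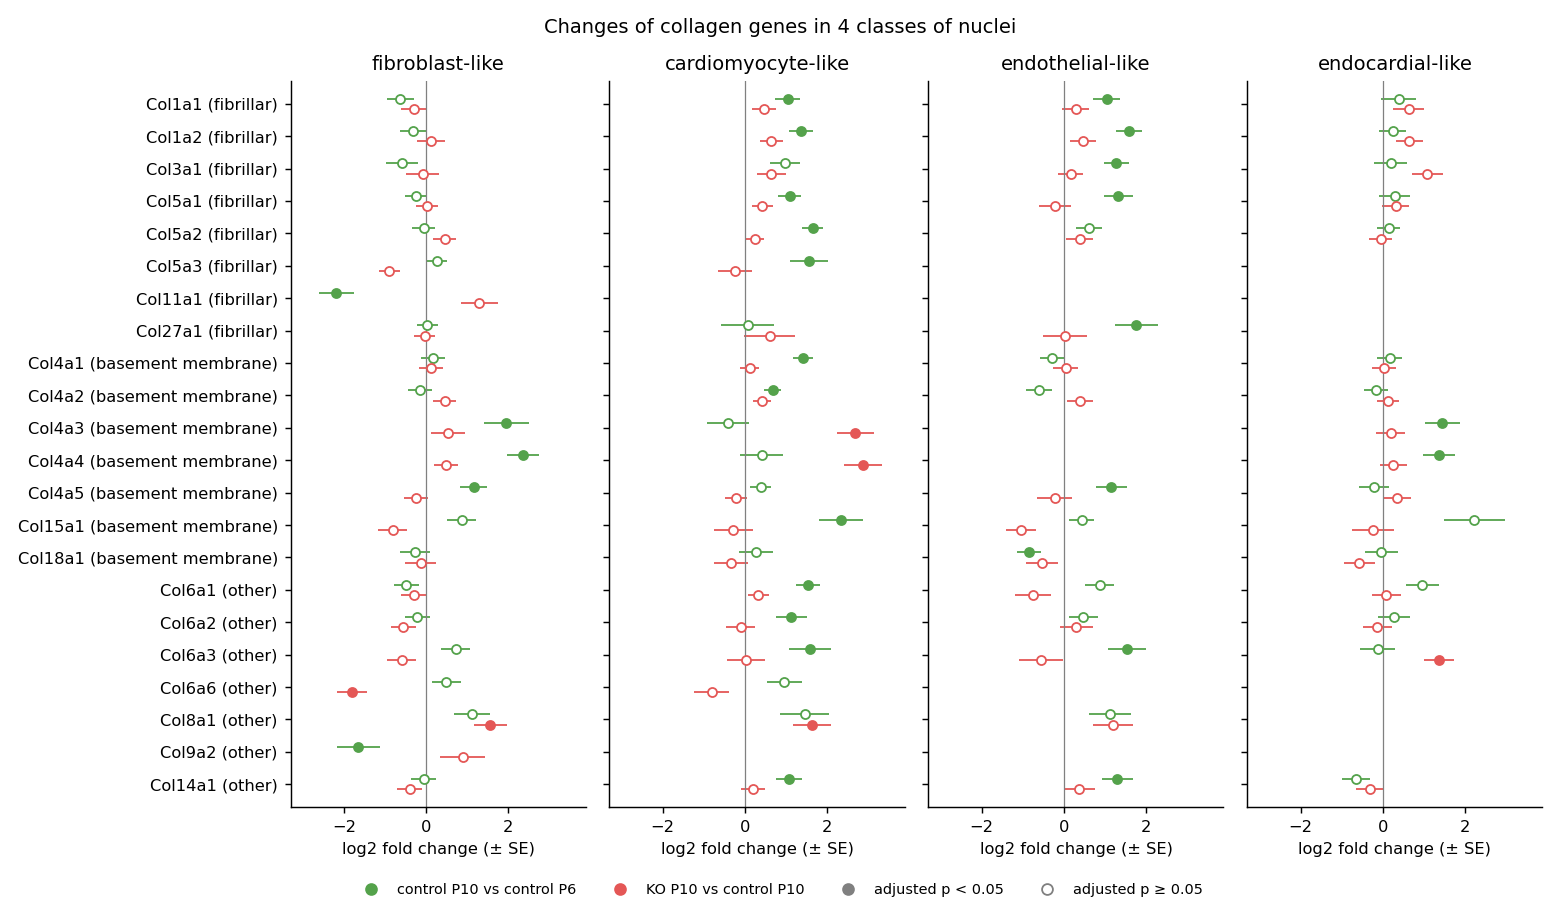
Log2 fold change with its standard error for collagens in the 4 classes, for control P10 against control P6 and for KO P10 against control P10, with filled points where the edgeR adjusted p is under 0.05. With age, filled points of fibrillar collagens lie to the right of 0 in cardiomyocyte-like and endothelial-like nuclei, while in fibroblast-like nuclei the filled fibrillar point, Col11a1, lies to the left.

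An interaction of class and age asked whether 2 classes changed differently. Between fibroblast-like and cardiomyocyte-like nuclei 12 of 31 collagens differed, against 1.97% of all genes (1.25% larger and 0.718% smaller in fibroblast-like nuclei), with the change smaller in fibroblast-like nuclei for 10 and larger for 2. The 5 fibrillar chains among them were Col1a1 (difference in log2 change -1.55, edgeR adjusted p = 3.95e-05), Col1a2 (-1.59), Col3a1 (-1.49), Col5a2 (-1.52) and Col5a1 (-1.18). The 2 in the other direction were Col4a3 (2.55, edgeR adjusted p = 0.00237) and Col4a4 (2.17, edgeR adjusted p = 0.00749, or 0.416 without control P6 library 2). Between fibroblast-like and endothelial-like nuclei 8 of 27 differed, against 1.93% of all genes (0.819% larger and 1.11% smaller), all with the smaller change in fibroblast-like nuclei, led by Col3a1 (-1.91, edgeR adjusted p = 2.9e-10) and Col1a2 (-1.88, edgeR adjusted p = 3.14e-10). Fibroblast markers differed between classes in the same direction. Their median log2 change with age was -0.007 in fibroblast-like, 1.38 in cardiomyocyte-like and 1.73 in endothelial-like nuclei. The part of RNA from fibroblasts in these differences was not tested. The other calls and their dependence on single libraries are given at the end.

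The comparison of KO P10 with control P10 asked how collagen RNA differed in mice labelled as knockouts of ERRα and ERRγ. It shares its control P10 libraries with the age comparison. In cardiomyocyte-like nuclei 3 of 25 collagens passed, all higher, against 13.8% of all genes in either direction, 7.19% higher and 6.63% lower, and the median log2 change was 0.24 beside 0.01 over all genes. They were Col4a4, Col4a3 and Col8a1.

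Col4a4 had 19.0, 17.7 and 22.1 CPM in control P10 and 63.3, 269 and 98.0 in KO P10 cardiomyocyte-like nuclei, a 7.39-fold rise (log2 2.89, SE 0.45, edgeR adjusted p = 0.000648). Col4a3 had 5.19, 10.9 and 7.999 against 23.0, 95.4 and 45.5, a 6.50-fold rise (2.70, SE 0.44, edgeR adjusted p = 0.000953). In both genes KO P10 library 2 was highest, the other knockout libraries still lay above every control of either age, and the call was kept with any 1 library left out. Without KO P10 library 2 the log2 change was 2.04 for Col4a4 and 2.01 for Col4a3, and with nuclei assigned by their own markers it was 1.88 and 1.74 (edgeR adjusted p = 0.00932 and 0.0231). That assignment held 2675, 1840 and 2789 nuclei in KO P10 libraries, against 578, 1278 and 1017 in the class. It thus took in many nuclei from outside the class and cannot show that the rise lay in cardiomyocytes. Markers of other cells moved in both directions in the same knockout nuclei. Endothelial markers summed to 194 to 323 CPM in control P10 and 174 to 301 in KO P10, with 1 of 8 lower. Pericyte markers summed to 701 to 730 against 453 to 642, with 1 of the 6 tested lower. The 6 endocardial markers, whose class had the highest Col4a3 and Col4a4 levels, summed to 138 to 151 CPM in control P10 and 222 to 267 in KO P10, with 2 of 6 higher by the test and none at 0. Erythroid markers summed to 1252 to 2301 against 2935 to 10237 CPM with 5 of 5 tested higher, and Malat1 took 11.4 to 13.1% against 5.70 to 14.8% of UMIs. Their part in the rise was not tested. The network partner of the pair, Col4a5, was not called in this comparison.

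Cardiomyocyte-like nuclei came from 3 clusters whose shares differed between groups. Cluster 5 held 89.6% of the class in control P6, 40.4% in control P10 and 27.8% in KO P10, cluster 4 held 10.3%, 58.9% and 41.2%, and cluster 6 held 0.127%, 0.674% and 31.0%, with 668 of its 918 nuclei from KO P10 library 2. Within cluster 4 alone, pooled Col4a4 was 18.3 CPM in control P10 and 107 in KO P10, and within cluster 5 it was 19.3 and 176. Pooled Col4a3 was 5.44 and 38.6 in cluster 4 and 13.5 and 64.3 in cluster 5. The pooled rise was thus seen within each of the clusters that both groups fill, and without cluster 6 all 3 calls were kept. By library, KO P10 lay above every control P10 library in these clusters except for Col4a3 in cluster 5. There control P10 libraries had 0, 20.4 and 9.31 CPM and KO P10 libraries 18.4 (4 UMIs), 90.1 and 69.8. In fibroblast-like nuclei Col4a4 had 76.6, 103 and 106 CPM in control P10 and 91.3, 162 and 163 in KO P10 (0.50, edgeR adjusted p = 0.451), and Col4a3 had 43.1, 66.6 and 63.8 against 46.7, 166 and 65.8 (0.54, edgeR adjusted p = 0.612). The difference between the classes passed its own test for Col4a4 (-2.20, edgeR adjusted p = 8.32e-06) and Col4a3 (-2.04, edgeR adjusted p = 0.000752), the 2 collagens called of 31, against 2.23% of all genes (1.06% larger and 1.16% smaller in fibroblast-like nuclei). In KO P10 the pair reached a mean of 103% (Col4a4) and 62.2% (Col4a3) of the fibroblast-like level of the same library, from 20.8% and 13.7% in control P10. In control P6, where the fibroblast-like levels were lower, the means were 95.3% (23.7, 169 and 93.1%) for Col4a4 and 159% (53.4, 65.4 and 358%) for Col4a3. A high ratio was thus not particular to the knockout.

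Col8a1 (chr16:57624258-57754737, minus strand), the type VIII chain of vessel wall networks, was called in cardiomyocyte-like and fibroblast-like nuclei. It had 5.19, 17.7 and 19.7 CPM in control P10 and 18.7, 91.8 and 30.3 in KO P10 cardiomyocyte-like nuclei (log2 1.64, SE 0.47, edgeR adjusted p = 0.0271), where KO P10 library 1 lay within the control range. In fibroblast-like nuclei it had 278, 233 and 253 against 280, 1516 and 499 (1.58, SE 0.41, edgeR adjusted p = 0.0365). The cardiomyocyte-like level was a mean of 5.92% of the fibroblast-like level of the same library in control P10 and 6.68% in KO P10. Fibroblast markers stood at 4.22 to 9.68% and 5.49 to 15.2%, and the part of RNA from fibroblasts in the cardiomyocyte-like call was not tested. KO P10 library 2 stood furthest from the others in both classes, and in fibroblast-like nuclei library 1 barely exceeded the highest control. Both calls rested on library 2. Without it the log2 change was 0.66 (adjusted p = 0.332) in cardiomyocyte-like and 0.62 (0.341) in fibroblast-like nuclei, and without any 1 control P10 library the adjusted p was 0.0508 to 0.0654 and 0.0912 to 0.173. In fibroblast-like nuclei smooth muscle markers summed to 329 to 436 CPM in control P10 and 484 to 1118 in KO P10, with 1 of the 3 tested higher, and their part was not tested.

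In fibroblast-like nuclei 2 of 29 collagens passed, against 3.34% of all genes, with a median log2 change of -0.03 beside 0.00. Col8a1 was higher, where 1.92% of all genes were, and the other was lower, where 1.42% were. The latter was Col6a6 (chr9:105687809-105828160, minus strand), another type VI chain, which had 460, 194 and 287 CPM in control P10 and 134, 36.8 and 84.0 in KO P10. The groups did not overlap, and the change was -1.79 on the log2 scale (SE 0.36, edgeR adjusted p = 0.00807), called with any 1 library left out. With nuclei assigned by their own markers it was -1.24 (edgeR adjusted p = 0.0673). The abundant chains overlapped between groups: Col3a1 had 7092, 3178 and 7733 CPM in KO P10 (-0.08, edgeR adjusted p = 0.959), Col1a2 had 5592, 3278 and 5156 (0.13, edgeR adjusted p = 0.914) and Col1a1 had 2173, 1159 and 1744 (-0.28, edgeR adjusted p = 0.766). KO P10 library 2 was lowest of the knockouts in each of them, as in Col15a1 with 1046, 280 and 556 CPM, Col14a1 with 612, 342 and 931, Col6a1 with 472, 265 and 415 and Col6a2 with 501, 265 and 454. It was highest in Col4a1, at 946, 1258 and 992, and in Col4a2, at 630, 1012 and 717. Fibroblast markers summed to 3421 to 7700 CPM in these knockout nuclei against 6866 to 10733 in control P10, and hemoglobin and other erythroid markers to 4467 to 19633 against 1864 to 2816 with 4 of 4 tested higher. Malat1, an RNA retained in nuclei, took 3.07 to 5.27% of UMIs against 6.45 to 7.66%. The part of these in the collagen values was not tested.

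**Figure D5:**
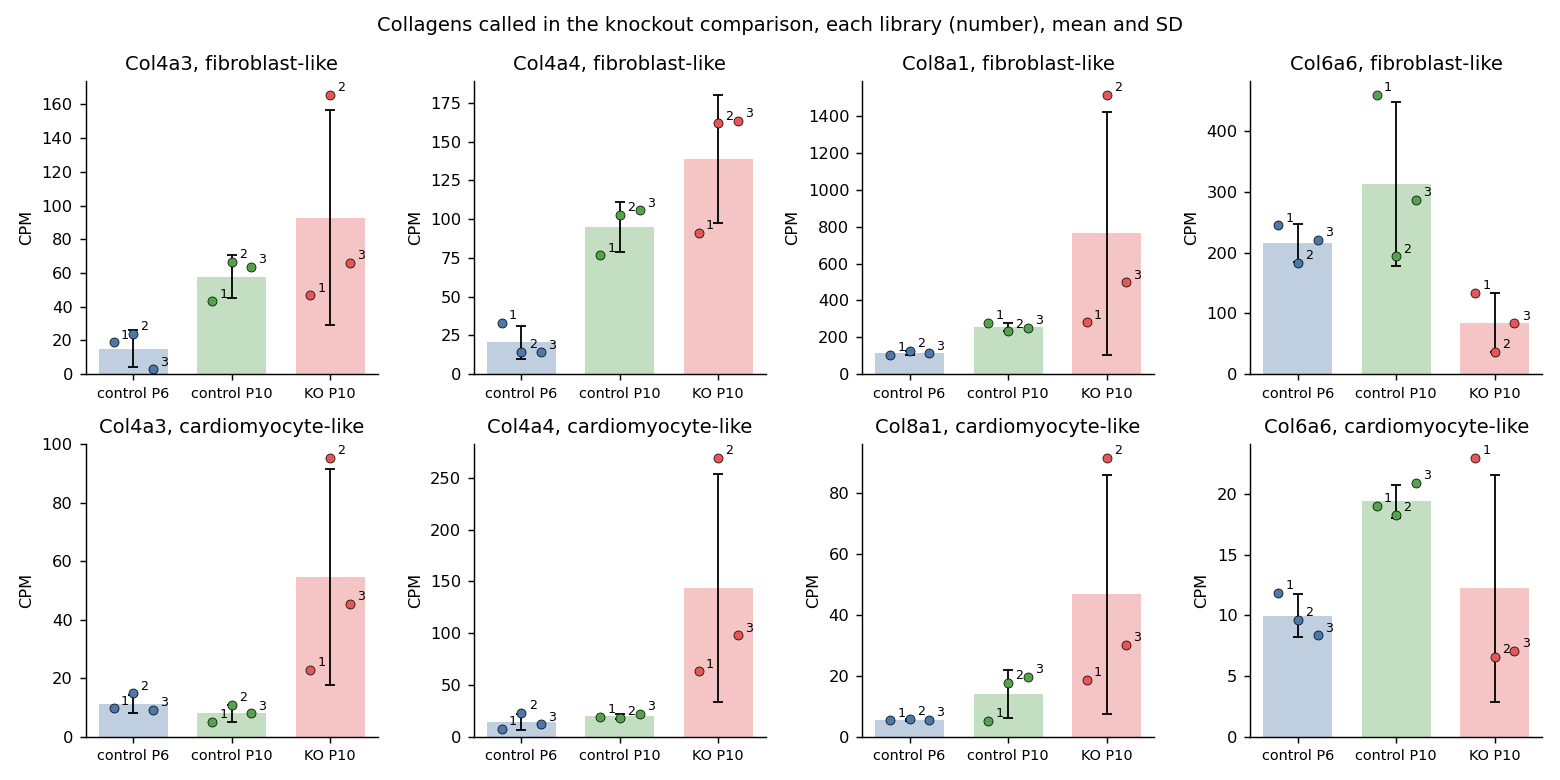
Levels (CPM) in fibroblast-like and cardiomyocyte-like nuclei of the 4 collagens called in either class in the knockout comparison, with each library as a numbered point, bars for the mean and lines for the SD over 3 libraries. For Col8a1, KO P10 library 2 stands apart at 1516 CPM in fibroblast-like nuclei, whereas for Col6a6 all 3 knockout libraries lie at or below 134 CPM.

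Endothelial-like nuclei had 0 of 16 collagens called in the knockout by edgeR, against 1.25% of all genes (0.862% higher and 0.385% lower), with 2 at an unadjusted p under 0.05 and 0 called by DESeq2. Those 2 were Col15a1, at 422, 291 and 457 CPM in control P10 and 256, 80.5 and 237 in KO P10 (-1.03, edgeR adjusted p = 0.173), and Col8a1, at 0, 45.0 and 78.3 against 102, 196 and 82.5 (1.20, edgeR adjusted p = 0.274), both without overlap. When nuclei were assigned by their own markers, 3 others were called: Col23a1, Col4a4 and Col5a2, named after their values were seen. The difference in knockout effect between fibroblast-like and endothelial-like nuclei was called by edgeR for 0 of 27 collagens (6 at an unadjusted p under 0.05), against 0.125% of all genes (0.091% larger and 0.0341% smaller). The counts at an unadjusted p are given without the share over all genes and are not read as a result. In endocardial-like nuclei 1 of 18 passed, against 2.11% of all genes (1.26% higher and 0.849% lower): Col6a3, a type VI chain, with 92.3, 131 and 99.6 CPM in control P10 and 227, 281 and 378 in KO P10 (1.38, SE 0.36, edgeR adjusted p = 0.0378). Its groups did not overlap, but the call was lost in 5 of the 6 fits with a library left out, all except that without KO P10 library 1 (0.0592 to 0.222). In these nuclei erythroid markers summed to 1679 to 2950 CPM in control P10 and 4195 to 15557 in KO P10 with 4 of 4 tested higher, and smooth muscle markers to 243 to 412 against 402 to 1014 with the 1 tested higher. Malat1 took 5.28 to 7.13% against 2.66 to 4.95% of UMIs, and the part of these in the Col6a3 value was not tested.

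Over all barcodes of a library, where fewer cells of a type and less RNA per cell cannot be told apart, 38 collagens were tested. The 6 that were not were Col2a1, Col6a4, Col6a5, Col9a3, Col10a1 and Col17a1. With age 10 of 38 rose and 0 fell, against 23.9% of all genes in either direction, 10.8% higher and 13.1% lower. Those kept with any 1 library left out were Col15a1 (log2 1.62), Col4a4 (1.49), Col6a3 (1.47), Col8a1 (1.43) and Col5a3 (1.07), with edgeR adjusted p between 0.00167 and 0.00893. Col4a3 (1.26), Col6a6 (1.26), Col4a1 (0.82), Col14a1 (0.72) and Col5a2 (0.69) passed with all libraries and each lost the call in 3 to 6 of the 6 fits with one left out, with adjusted p up to 0.170. With the barcodes shared by KO P10 libraries 1 and 2 left out of the fit, 3 of the 10 calls ended, those of Col14a1 (edgeR adjusted p = 0.136), Col6a6 (0.0739) and Col4a3 (0.0563). Col8a1, for example, had 21.8, 24.1 and 21.9 CPM in control P6 and 55.9, 60.7 and 66.9 in control P10.

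In the knockout 6 of 38 collagens rose over all barcodes and 0 fell, against 16.3% of all genes in either direction, 9.47% higher and 6.86% lower. Col9a2 had 2.94, 5.21 and 2.21 CPM in control P10 and 13.8, 14.3 and 10.9 in KO P10 (log2 1.86, SE 0.35, edgeR adjusted p = 0.00299). The FACIT chain Col12a1 had 12.5, 11.4 and 9.84 against 24.2, 30.7 and 23.6 (1.22, SE 0.22, edgeR adjusted p = 0.00258). Col8a1 had 55.9, 60.7 and 66.9 against 89.8, 282 and 140 (1.48, SE 0.31, edgeR adjusted p = 0.0057), and Col4a4 had 57.4, 50.7 and 56.1 against 81.2, 200 and 125 (1.31, SE 0.26, edgeR adjusted p = 0.00434). In these 4 genes the groups lay apart and the call was kept with any 1 library left out. Col4a3 (1.18, edgeR adjusted p = 0.0373) lost its call in 5 of the 6 fits, all except that without KO P10 library 1 (0.0777 to 0.144), and Col23a1 (0.87, edgeR adjusted p = 0.0294) without KO P10 library 2 (0.116) or control P10 library 3 (0.164).

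Partner genes of the collagens were counted from a list of 57, covering synthesis, crosslinking, receptors, proteoglycans, breakdown and the other basement membrane proteins. In fibroblast-like nuclei 7 of 47 tested were called with age, beside 12.8% of all genes. Among them the prolyl isomerase Ppib, at 316, 414 and 570 CPM in control P6 and 91.0, 274 and 114 in control P10 (-1.39, edgeR adjusted p = 0.0118), the crosslinking enzyme Loxl2 (-1.24, edgeR adjusted p = 0.0154) and the prolyl hydroxylase P3h1 (-1.28, edgeR adjusted p = 0.0188) fell, and Pcolce2, an enhancer of procollagen processing, rose (1.15, edgeR adjusted p = 0.0323). In the knockout 2 of 47 were called, beside 3.34% of all genes. Lox, which crosslinks collagen and elastin, rose from 67.1, 123.1 and 49.8 to 162, 651 and 325 CPM (2.17, edgeR adjusted p = 0.00674), and the laminin chain Lama4 fell (-0.98, edgeR adjusted p = 0.0419).

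In cardiomyocyte-like nuclei 11 of 42 partners rose with age, beside 8.19% of all genes called higher and 17.3% in either direction. Of the 11, Nid1 (1.44), Adamts2 (1.67), Lamc1 (1.23) and Lum (1.52) had the smallest p, with edgeR adjusted p between 0.00148 and 0.00542. In the knockout 13 of 42 rose and 0 fell, beside 7.19% of all genes higher and 6.63% lower, in the nuclei whose endocardial and erythroid marker sums are given above. Of the 13, 6 were among the 13 synthesis and folding genes tested, whose median log2 change was 0.71. P3h2, the prolyl 3-hydroxylase that acts on type IV collagen, had 17.3, 11.4 and 14.2 CPM in control P10 and 54.6, 175 and 85.9 in KO P10 (2.96, edgeR adjusted p = 0.000326). Plod2, a lysyl hydroxylase, had 51.9, 67.5 and 49.8 against 137, 150 and 208 (1.54, edgeR adjusted p = 0.000654). Lox (2.57, edgeR adjusted p = 0.000944) and the proteoglycan Bgn (1.06, edgeR adjusted p = 0.0055) rose too. Knockout libraries lay above every control P10 library in P3h2 and Plod2, and library 2 was again the highest for P3h2 but not for Plod2. In endothelial-like nuclei 9 of 38 partners were called with age, 7 higher and 2 lower, beside 7.87% and 8.71% of all genes, led by the laminin chain Lama2 (2.09, edgeR adjusted p = 3.93e-05). In the knockout 0 were called by edgeR, beside 1.25% of all genes. The 5 partners at an unadjusted p under 0.05 are given without the share over all genes. In endocardial-like nuclei 4 of 33 were called with age, beside 8.01% of all genes, and 1 in the knockout, beside 2.11%. It was Adamts2, a procollagen protease, at 92.3, 50.01 and 74.7 against 220, 238 and 177 CPM (1.67, edgeR adjusted p = 0.0174).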

How the data were processed

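Single-nucleus Drop-seq of 9 ventricle libraries in 3 groups of 3 was analysed, with groups taken from the sample titles. The authors deposited tables of UMI counts (whole numbers) for each gene and barcode, aligned with STAR 2.5.2a and built on mm10, per the submitters' processing notes, with exonic and intronic reads counted together, per the file names. How the 3000 or 4000 barcodes per library were chosen, the annotation and the use of strand are not given in the sources used here. Intronic reads make long genes easier to count, so levels of single genes were compared with each other per kilobase of gene span (GENCODE vM21, GRCm38). Family shares are sums of UMIs without this correction. Basement membrane genes span 105 to 309 kb, against 16.8 to 38.2 kb for Col1a1, Col1a2 and Col3a1. Hearts were processed fresh or flash frozen, per the labels' protocols, without a record per library, and no batch is labelled.

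The members and gene lists were chosen with earlier results of these data known. Mitochondrially encoded genes, barcodes under 500 UMIs, barcodes of KO P10 library 2 shared with library 1, and the 5% of barcodes per library with the highest Scrublet scores (1328 in all) were left out of the classes. The sums over all barcodes leave out only the mitochondrially encoded genes. Clusters (scanpy 1.11.5, 2000 variable genes centred per library, 30 components, 15 neighbours, Leiden resolution 1.0, igraph 0.11.9) were named from markers of 13 classes, as X-like, with at least 3 markers raised 1.5-fold. Clusters with Malat1 under 40% of the median over clusters stayed unnamed, a threshold set after the data were seen. Counts were summed per library and class, where each library held at least 50 nuclei of the class, giving 231123 to 721127 UMIs for fibroblast-like, 624197 to 1735368 for cardiomyocyte-like, 47745 to 362957 for endothelial-like and 59179 to 261482 for endocardial-like nuclei. The collagens tested in these classes numbered 29, 25, 16 and 18.

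The test was edgeR 4.0.16 (R 4.3.3) quasi-likelihood, two-sided, fitted to all 9 libraries by group alone with filterByExpr and TMM factors, with Benjamini-Hochberg adjustment over all genes tested and a threshold of 0.05. Interactions were tested on the sums of 2 classes, blocking on library. CPM are scaled to a class total of 1000000, with TMM factors where a test is given. Values are printed for every collagen called in a class, for the 3 highest of each family in fibroblast-like nuclei and the 3 highest basement membrane collagens in endothelial-like nuclei, and partner genes are limited to the 4 of smallest p. The test was checked on simulated counts with known changes for each class and comparison. Changes of log2 size 1 were recovered in 15 to 37% of cases in the 4 classes and in 40 to 50% over all barcodes. Those of log2 size 2 were recovered in 72 to 91%. A gene that was not called may thus still have changed. Alternatives were DESeq2 1.42.0, RLE factors, no filter, a block for the replicate number, other class assignments, 800 UMIs and leaving out each library in turn. Python 3.11.15, scikit-learn 1.9.0, pandas 2.3.3, scipy 1.17.1 and numpy 2.4.6 were used.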

Additional observations from a re-analysis of the deposited data

Results flagged for a closer look

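The age change (control P10 against control P6) or the knockout effect (KO P10 against control P10) of 22 results differed between classes by an interaction test with an edgeR adjusted p under 0.05. Values are the log2 change in fibroblast-like nuclei minus that in the other class. Fibroblast markers rose with age in cardiomyocyte-like and endothelial-like nuclei, as given above, and their part in these differences was not tested. For age against cardiomyocyte-like nuclei they were -1.55 for Col1a1, -1.59 for Col1a2, -1.49 for Col3a1, -1.18 for Col5a1, -1.52 for Col5a2, -1.34 for Col15a1, -1.08 for Col4a1, -1.86 for Col6a1, -1.18 for Col6a2 and -0.96 for Col14a1, and 2.55 for Col4a3 and 2.17 for Col4a4. Of these, Col14a1 failed in 5 of 6 fits with a library left out (adjusted p = 0.0627 to 0.383), all except that without control P10 library 2, and Col6a2 without control P10 library 1 or 3 or control P6 library 1 or 2 (0.0645 to 0.158). Col5a1 failed without control P10 library 3 (0.139) or control P6 library 3 (0.104), Col4a1 without control P6 library 3 (0.187) and Col4a4 without control P6 library 2 (0.416).

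For the knockout effect against cardiomyocyte-like nuclei the differences were -2.04 for Col4a3 and -2.20 for Col4a4, each called in 6 of 6 fits with a library left out. For age against endothelial-like nuclei they were -1.64 for Col1a1, -1.88 for Col1a2, -1.91 for Col3a1 and -1.53 for Col5a1, called in 6 of 6 such fits, and -3.46 for Col11a1, -1.80 for Col27a1, -1.38 for Col14a1 and -1.26 for Col6a1. Col11a1 failed without any library except control P10 library 1 (0.0597 to 0.364), and Col27a1 without control P10 library 2 or control P6 library 1 or 2 (0.0952 to 0.764). Col14a1 failed without control P10 library 3 or control P6 library 1 or 3 (0.0987 to 0.583), and Col6a1 without control P10 library 1 or 3 or control P6 library 2 or 3 (0.135 to 0.198). Groups of 3 libraries are too small for a check of single outlying libraries.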

How the results depend on the processing

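Of 167 counts of called collagens under an alternative, 125 stayed within 1.5 times the main count and 42 did not, and of 836 values of single called genes 653 stayed past the threshold, 183 did not and 0 changed sign. In fibroblast-like nuclei the 2 knockout calls became 1 with the replicate block and 0 with classes from own markers. With at least 800 UMIs per barcode the age calls became 7 (from 12) in cardiomyocyte-like, 4 (from 9) in endothelial-like and 0 (from 2) in endocardial-like nuclei, and the fibroblast-like collagen share was 2.19% in place of 2.09%. DESeq2 gave 3 age calls in endothelial-like nuclei, 1 in endocardial-like nuclei and 0 in the endocardial-like knockout comparison, where no filter on low counts gave 2 and resolution 0.5 gave 0, against 1. Classes from own markers gave 5 endothelial-like age calls and 3 knockout calls, against 9 and 0. Without the filter, 16 collagens were called with age over all barcodes, against 10, and 4 differed between fibroblast-like and endothelial-like nuclei, against 8. The cause of these moves was not tested. The number of all genes called moved by over 1.5 times in these cases: with 800 UMIs to 610 (from 1083, age) and 136 (from 282, knockout) in fibroblast-like, 41 (from 81, knockout) in endothelial-like, and 192 (from 349, age) and 29 (from 92, knockout) in endocardial-like nuclei; with resolution 0.5 to 203, 699 and 20 in the last 3; with DESeq2 to 654 (from 1077, endothelial-like, age). Own markers gave 110 in the fibroblast-like and 165 in the endothelial-like knockout comparison and 700 with age in fibroblast-like nuclei. For the fibroblast-like and endothelial-like difference, no filter gave 111 (from 170, age) and 4 (from 11, knockout), and RLE factors 17. With 1 library left out, counts of collagens with age ran from 2 to 8 in fibroblast-like, 6 to 10 in cardiomyocyte-like, 4 to 7 in endothelial-like and 0 to 2 in endocardial-like nuclei and 6 to 11 over all barcodes. The fibroblast-like age count was 2 without control P10 library 3 or control P6 library 3, 3 without control P6 library 2 and 8 without control P6 library 1, and the cardiomyocyte-like one 6 without control P10 library 3 or control P6 library 2. Knockout counts ran from 1 to 4, 2 to 5, 0 to 0, 0 to 1 and 4 to 9. Age interactions ran from 9 to 12 against cardiomyocyte-like and 5 to 7 against endothelial-like nuclei.

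Deviations of same-numbered libraries from their group means had correlations of -0.27 to 0.30, in no class and comparison all 3 over 0.1. With 3 libraries per group these cannot exclude that the numbers pair the samples, and the main fit treated the libraries as unpaired. With the replicate block Col8a1 in fibroblast-like nuclei was 1.33 (edgeR adjusted p = 0.0723), and the counts were 5, 11, 6 and 3 with age and 1, 3, 0 and 1 in the knockout in fibroblast-, cardiomyocyte-, endothelial- and endocardial-like nuclei. Assignment by all markers could not be fitted for fibroblast-, endothelial- or endocardial-like nuclei, since a library had too few. The version without cardiomyocyte and erythroid markers, used for fibroblast-like and endothelial-like nuclei, and the fit without cluster 6 were chosen after seeing the data.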
